A study of Mus musculus with 4 samples.

Results

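The Hox genes encode homeodomain transcription factors and lie in 4 clusters, Hoxa on chromosome 6, Hoxb on chromosome 11, Hoxc on chromosome 15 and Hoxd on chromosome 2 of the mouse. The members were the 38 Hox genes named for these clusters, and they were found through the gene symbols that GEO's platform annotation gives to the probe sets of the array. Of the 38, 33 had at least 1 probe set listed with that gene alone, which gave 48 probe sets of the 45037 tested and 33 of the 18193 genes. Hoxb8 and Hoxd4 appeared only on probe sets listed jointly with a neighbour, and for Hoxa6, Hoxc11 and Hoxc12 no probe set was listed. Expression was measured on Affymetrix Mouse Genome 430 2.0 arrays in F9 cells, a line of undifferentiated mouse embryonal carcinoma. The shVector group (2 arrays) carried the pLKO.1 hairpin vector as its control, and the shPhf19 group (2 arrays) carried pLKO.1 with a hairpin against Phf19. Both groups were infected with lentivirus and kept as stable cells after selection with puromycin, so the viral vector and the selection were common to them. The labels call the arrays biological replicates and name no hairpin sequence, clone or separate infection, so every p-value here reflects only how these 4 arrays vary. In such bulk samples, fewer cells expressing a gene and less RNA per cell cannot be told apart.

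The Hox genes of a cluster are numbered by paralog group, from group 1 at the anterior end to group 13 at the posterior end, and in the embryo they are switched on in that order along the body axis. In undifferentiated embryonic cells the clusters are among the best known targets of Polycomb repressive complex 2 (PRC2), which methylates histone H3 at lysine 27, and retinoic acid switches them on. Phf19 is one of the Polycomb-like partners of PRC2, and the comparison of shPhf19 with shVector asks how the clusters are expressed when it is knocked down. Phf19 itself was measured by 2 probe sets. Probe set 1427920_at was at 6.07 and 6.14 on the log2 scale in shVector and at 5.08 and 5.17 in shPhf19, a difference of -0.98 ± 0.10 (SE; limma adjusted p = 0.0108). Probe set 1431857_at, the brighter of the pair, read 6.32 and 6.11 in shVector and 6.05 and 6.26 in shPhf19, so the groups overlapped (-0.06 ± 0.12, limma adjusted p = 0.928). With any 1 array left out, whichever it was, limma called 0 probe sets of the whole table, so every call given here, that of Phf19 included, needs all 4 arrays.

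Polycomb complexes are recruited to stretches of DNA that are rich in CpG dinucleotides. Hoxd8, Hoxd9 and Hoxd10 stood highest in change of the Hoxd genes once Hoxd13, whose probe sets ran in opposite directions, was set aside. Hoxd9 and Hoxd10 were read by 1 probe set each. The upstream sequences of these 3 neighbours are therefore shown. Each is the 250 bases before the gene's start in RefSeq (build GRCm38.p6, plus strand), with every CpG in capitals. They lie at chr2:74704365-74704614 (Hoxd8), chr2:74697513-74697762 (Hoxd9) and chr2:74691641-74691890 (Hoxd10).
Hoxd8: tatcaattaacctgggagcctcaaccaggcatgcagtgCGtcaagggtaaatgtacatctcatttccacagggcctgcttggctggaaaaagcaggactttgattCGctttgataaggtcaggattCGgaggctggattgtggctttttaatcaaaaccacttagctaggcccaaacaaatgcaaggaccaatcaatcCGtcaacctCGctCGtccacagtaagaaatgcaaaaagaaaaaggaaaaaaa
Hoxd9: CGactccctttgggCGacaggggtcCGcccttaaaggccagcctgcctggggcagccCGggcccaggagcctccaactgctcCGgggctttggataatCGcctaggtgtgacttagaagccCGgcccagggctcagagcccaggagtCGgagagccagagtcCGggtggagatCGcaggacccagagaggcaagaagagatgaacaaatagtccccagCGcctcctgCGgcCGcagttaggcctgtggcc
Hoxd10: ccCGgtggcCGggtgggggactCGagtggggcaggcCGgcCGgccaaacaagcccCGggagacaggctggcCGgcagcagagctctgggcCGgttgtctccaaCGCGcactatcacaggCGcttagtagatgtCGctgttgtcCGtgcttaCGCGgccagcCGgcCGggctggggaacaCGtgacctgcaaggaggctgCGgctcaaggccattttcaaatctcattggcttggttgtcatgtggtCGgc
The Hoxd8 sequence held 6 CpG and had a GC content of 44.4%, the Hoxd9 sequence held 13 at 65.2% GC, and the Hoxd10 sequence held 20 at 65.6% GC. Upstream sequences were matched for 19 of the 33 Hox genes, with 21 start sites among them. The median number of CpG was 13 over these 21 and 6 over 32851 upstream windows of the same length. The ratio of observed to expected CpG was above 0.6 in 11 of the 21 (52.4%) and in 34% of all windows. Of the printed sequences, that of Hoxd10 was above it at 0.755, while those of Hoxd8 (0.487) and Hoxd9 (0.49) were below. In these 250-base windows the CpG counts of the 3 printed genes lay within the range of their neighbours. Hoxd12 held 10, Hoxd13 held 31 and the start sites of Hoxd11 held 2 and 20. A link between CpG count and change was not tested. Whether PRC2 or any mark sits at these sequences in F9 cells was not measured here.

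In the Hoxd cluster, Hoxd9 rose and its neighbours on both sides, Hoxd8 and Hoxd10, lay higher on both shPhf19 arrays without passing the test. Hoxd9 encodes a posterior Hox factor that acts in the limb, lumbar spinal cord and axial skeleton. Its probe set 1419126_at read 5.36 and 5.64 on the shVector arrays and 6.33 and 6.21 on the shPhf19 arrays. The groups did not overlap, and the gap between them was larger than the spread within either. The change was 0.77 ± 0.12 (SE), a 1.71-fold rise with a 95% interval of 0.48 to 1.06 on the log2 scale (limma adjusted p = 0.0426). It was the only one of the 48 Hox probe sets past the threshold of 0.05, and 0.830% of all probe sets passed it in that direction. Of the 18193 genes, 102 had a larger rise than Hoxd9. With each of the 4 arrays left out in turn, the change was 0.63 to 0.91 and never passed (limma adjusted p of 0.149 to 0.827). It was also lost without an intensity trend in the variance (adjusted p = 0.0622).

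Hoxd10, which lies next to Hoxd9 and helps to pattern hindlimb motor neurons, read 3.75 and 3.82 on the shVector arrays and 4.74 and 4.36 on the shPhf19 arrays (1418606_at). The shPhf19 arrays were both higher, but differed from each other by more than the shVector arrays did. The change was nearly that of Hoxd9, at 0.76 ± 0.14 (1.70-fold), and had an adjusted p of 0.0645 (limma). This probe set was dim, with a mean at percentile 24.9 of all probe sets. Hoxd8, on the other side of Hoxd9, had 2 probe sets that ran the same way. Probe set 1431099_at read 5.09 and 5.18 in shVector against 5.71 and 5.55 in shPhf19, a change of 0.50 ± 0.10 (1.42-fold, limma adjusted p = 0.0936). Probe set 1433638_s_at read 4.16 and 4.06 in shVector against 4.45 on both shPhf19 arrays (0.34 ± 0.09, limma adjusted p = 0.194). In all 4 of these probe sets of Hoxd8, Hoxd9 and Hoxd10, both shPhf19 arrays lay above both shVector arrays, as they did in 19.4% of all probe sets. These genes were singled out by their high changes, so this count is only a description.

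**Figure D1:**
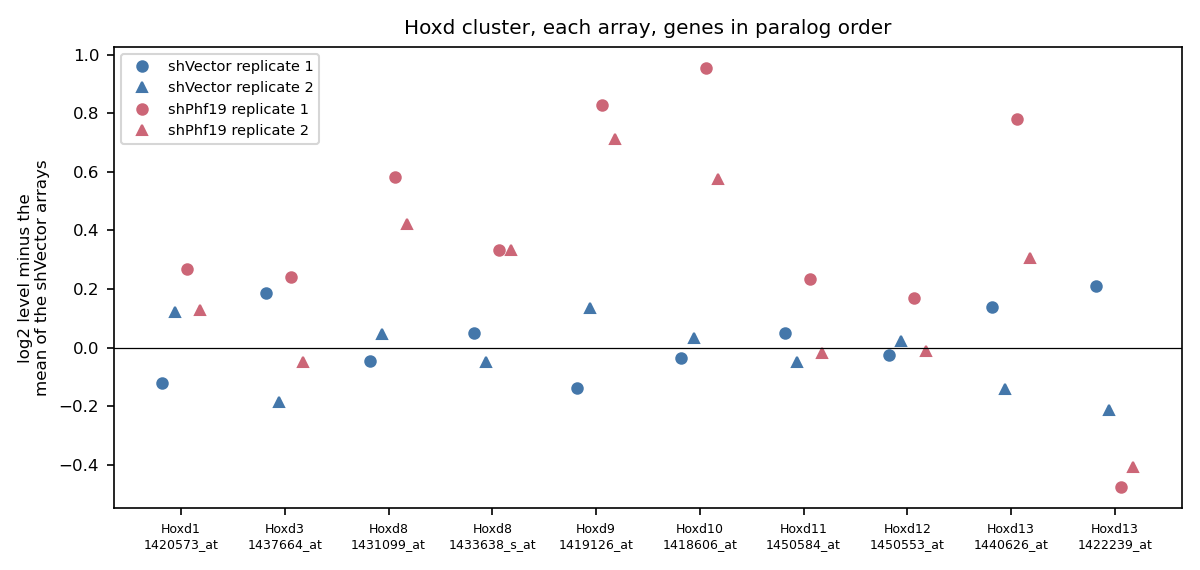
Level of each single-gene Hoxd probe set on each of the 4 arrays, as the log2 value minus the mean of the shVector arrays, with genes in paralog order from left to right. The shPhf19 arrays sit 0.34 to 0.77 above the shVector mean, on average, for the probe sets of Hoxd8, Hoxd9 and Hoxd10, near it for Hoxd11 and Hoxd12, and on opposite sides for the 2 probe sets of Hoxd13.

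Beyond these 3 genes the Hoxd cluster gave smaller or discordant values. Hoxd11 (0.11 ± 0.12) and Hoxd12 (0.08 ± 0.10), the next genes towards the posterior end, had overlapping groups, and their 95% intervals reached 0.39 and 0.32. Both probe sets were dim, with means at percentiles 19.2 and 14.9 of all probe sets, where a change can be understated. Hoxd13, the last gene of the cluster and the one that shapes the digits, had 2 probe sets of opposite sign. Probe set 1440626_at read 5.18 and 4.90 in shVector and 5.82 and 5.34 in shPhf19 (0.54 ± 0.18, limma adjusted p = 0.265). Probe set 1422239_at read 5.40 and 4.97 in shVector and 4.71 and 4.78 in shPhf19 (-0.44 ± 0.15, limma adjusted p = 0.286). The 2 probe sets differed in change by 0.99, the widest gap among the 11 Hox genes with more than 1 probe set, so no direction is given for Hoxd13. On the shVector arrays alone 1422239_at was the brighter, at a mean of 5.19 against 5.04, and 1440626_at was the brighter over all 4 arrays only through its shPhf19 values. Where along the Hoxd13 transcript these probe sets lie was not looked at.

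At the anterior end, Hoxd1 stood at 0.20 ± 0.12 and Hoxd3 at 0.10 ± 0.16. Of the 2 probe sets listed with Hoxd3 and Hoxd4 together, 1450209_at read 5.01 and 5.05 in shVector and 5.30 and 5.33 in shPhf19 (0.29 ± 0.09, limma adjusted p = 0.259), while 1421537_at was at -0.04 ± 0.09. Hoxd3os1, a noncoding gene named as antisense to Hoxd3 that was picked after its values were seen, was likewise split, at 0.48 ± 0.17 and -0.14 ± 0.09 by its 2 probe sets. All 7 Hoxd genes other than Hoxd13 had a change above 0 by their representative probe sets (for each gene the one with the highest mean over the 4 arrays), with a median of 0.20. With Hoxd13 entered by 1440626_at, as that choice has it, the median of the 8 was 0.35. It was 0.15 with the probe set brightest in shVector, a choice made after seeing the data, and also 0.15 when the probe sets of a gene were averaged. The value of 0.35 became 0.22 without shPhf19 replicate 1 and 0.42 without shPhf19 replicate 2.

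In the Hoxc cluster, Hoxc13 stood apart from the other genes by its value, though it did not pass the test. Hoxc13 is a posterior gene that regulates hair keratins. Its probe set read 4.75 and 4.90 on the shVector arrays and 5.40 and 5.35 on the shPhf19 arrays, with no overlap. The change was 0.55 ± 0.10 (1.47-fold, 95% interval 0.31 to 0.79; limma adjusted p = 0.0643). The other 6 Hoxc genes ran from -0.21 to 0.10. Hoxc8, a gene of the thoracic region, read 3.10 and 3.08 in shVector and 2.76 and 2.99 in shPhf19 (-0.21 ± 0.10), with a mean at percentile 3.66 of all probe sets. Hoxc4, the most anterior gene of the cluster, read 5.18 and 5.28 in shVector and 5.37 and 5.30 in shPhf19 (0.10 ± 0.10). Hoxc10 and Hoxc9, the measured genes nearest to Hoxc13, lay at -0.06 ± 0.15 and -0.06 ± 0.10. The 3 probe sets of Hoxc5 ran from 0.03 to 0.19 and the 3 of Hoxc6 from -0.14 to -0.04.

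In the Hoxb cluster no gene passed, and the 9 measured genes ran from -0.30 to 0.23 with a median of 0.01. The lowest was Hoxb13, a gene of the prostate and tail bud, at 5.28 and 5.04 in shVector against 5.0 and 4.72 in shPhf19 (-0.30 ± 0.14, limma adjusted p = 0.437). The lowest shVector value and the highest shPhf19 value were close to each other. The highest was Hoxb9, a gene of the thoracic region, at 5.39 on both shVector arrays against 5.50 and 5.73 in shPhf19 (0.23 ± 0.11, limma adjusted p = 0.476). Hoxb6 read 3.52 and 3.42 in shVector and 3.26 and 3.24 in shPhf19 (-0.22 ± 0.09, limma adjusted p = 0.382). These values lay in the dimmest part of the array. Hoxb1, a gene of the hindbrain that answers early to retinoic acid, stood at 0.18 ± 0.10 (limma adjusted p = 0.529), and Hoxb2 next to it at -0.03 ± 0.09. The probe set listed with Hoxb7 and Hoxb8 together was at -0.02 ± 0.11.

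In the Hoxa cluster likewise none passed, and 8 of the 9 measured genes lay within 0.25 of 0. The exception was Hoxa2, a gene of the hindbrain and branchial arches, at 3.11 and 3.09 in shVector against 3.40 and 3.41 in shPhf19. The replicate arrays nearly coincided and the groups were apart, yet the change of 0.30 ± 0.09 did not pass (limma adjusted p = 0.203), and the probe set was dim. Hoxa7 read 6.63 and 6.52 in shVector and 6.72 and 6.69 in shPhf19 (0.13 ± 0.09). Hoxa13, the posterior gene of limb and genital development, read 4.01 and 4.11 against 4.16 and 4.11 (0.07 ± 0.10). Hoxa9 and Hoxa10, the same-numbered counterparts of Hoxd9 and Hoxd10, stood at -0.04 ± 0.09 and -0.05 ± 0.09. The 95% intervals of these changes ended at 0.17 for Hoxa9 and 0.16 for Hoxa10, below the interval of Hoxd9. The Hoxa10 probe set was dim, with a mean at percentile 10.1 of all probe sets, where a change can be understated. These differences from Hoxd9, the Hox gene with the largest change, were not tested. The 4 probe sets of Hoxa3 ran from -0.26 to 0.06 and the 2 of Hoxa5 from -0.02 to 0.28.

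**Figure D2:**
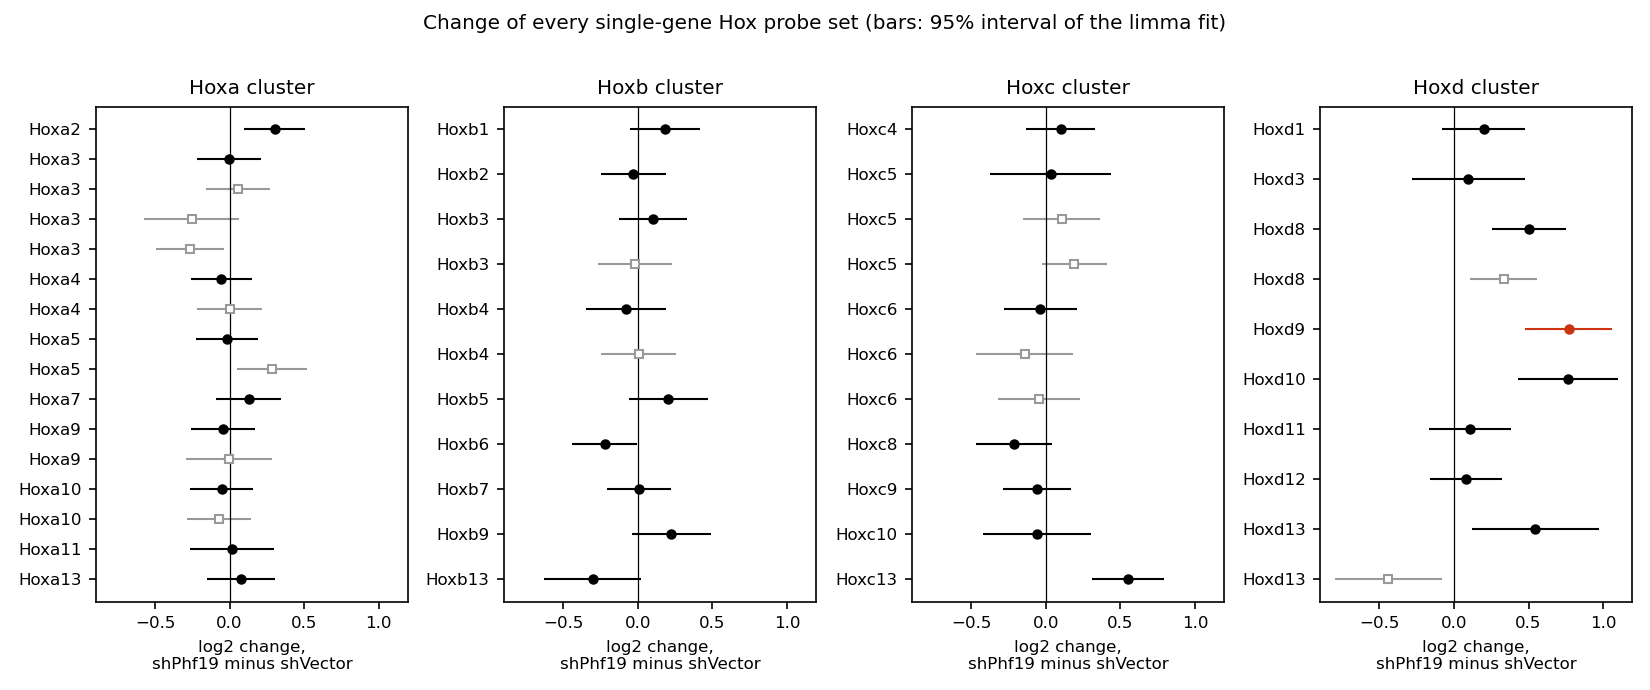
Change of each of the 48 single-gene Hox probe sets (log2, shPhf19 minus shVector), in 4 panels by cluster with genes ordered from anterior to posterior. Points are changes and bars 95% intervals from limma; filled circles are the representative probe set of a gene, open squares its other probe sets, and the red circle is Hoxd9, the 1 probe set past the threshold.

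Most Hox probe sets were dim in both groups. The array medians lay between 5.75 and 5.77 on the log2 scale, and 42 of the 48 Hox probe sets (87.5%) had a mean below the median of all probe sets. By genes it was 27 of 33 (81.8%, against 38.5% of all genes), and the 6 others were Hoxa3, Hoxa5, Hoxa7, Hoxa9, Hoxc9 and Hoxd9. Without detection calls, signal and background cannot be separated at such levels, and a change there can be understated. Levels of different probe sets are not comparable as amounts of RNA. Hoxd9 was among the 6 only through its shPhf19 arrays, since its shVector mean of 5.50 lay below the array medians. Replicate arrays of shVector differed by an SD of 0.170 over the Hox probe sets and 0.192 over all probe sets; for shPhf19 these were 0.174 and 0.149.

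**Figure D3:**
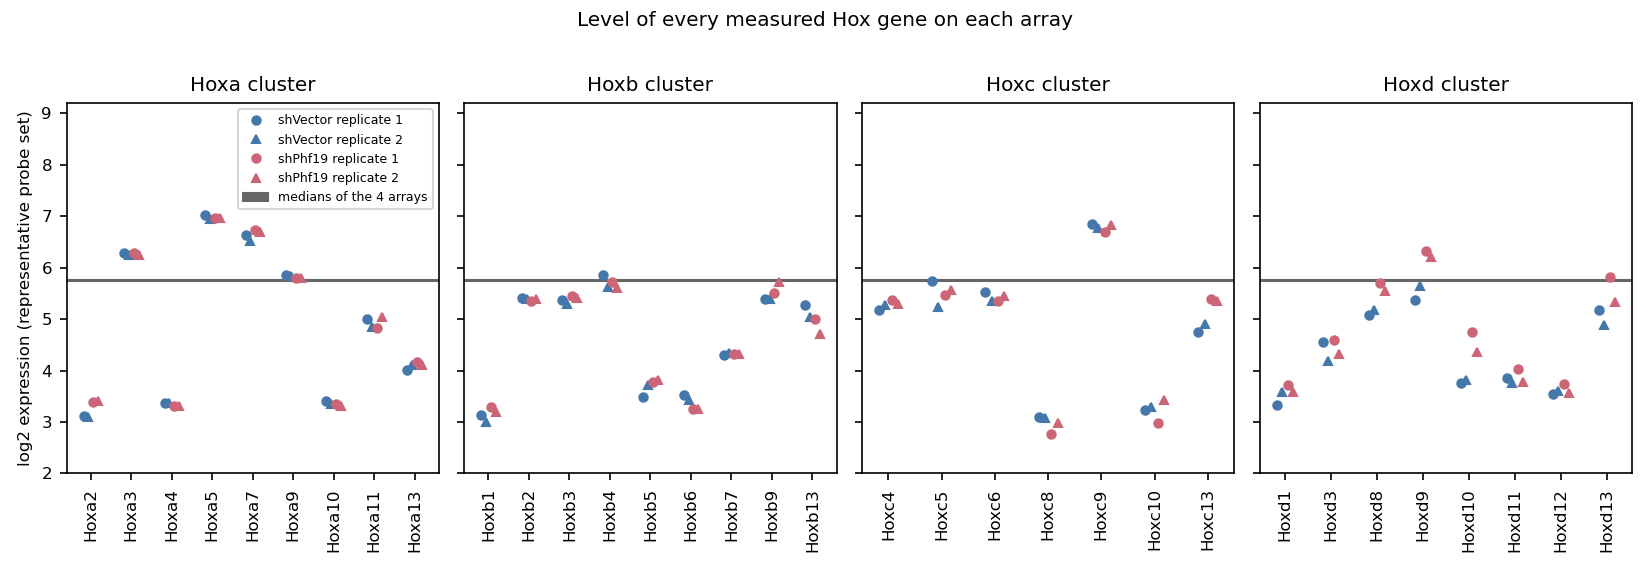
Log2 expression of the representative probe set of each of the 33 Hox genes on each of the 4 arrays, in 4 panels by cluster. The grey band marks the medians of the arrays (5.75 to 5.77). Of the genes shown, 27 have a mean below the median of all probe sets (81.8%, against 38.5% of all genes). Both shPhf19 arrays lie above both shVector arrays for 13 genes (39.4%, against 21.3% of all genes), Hoxd8, Hoxd9, Hoxd10 and Hoxc13 among them. They lie below for 6 genes (18.2%, against 22.2%). Read by the probe set brightest in shVector, they lie above for 12 genes and below for 7.

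Read over all clusters, 1 of 33 Hox genes rose and none fell, where 1.15% of all genes rose and 0.863% fell (2.02% in either direction, limma adjusted p under 0.05). By probe sets, 1 of 48 rose and none fell, against 0.582% of all probe sets that fell and 1.41% that passed in either direction. At an unadjusted p under 0.05, 6 Hox genes were higher and 1 lower (18.2% and 3.03%), against 7.73% and 7.35% of all genes; by probe sets it was 8 and 3 of 48, against 6.57% and 6.11%. The lower gene was Hoxb6, and the higher ones were Hoxa2, Hoxc13, Hoxd8, Hoxd9, Hoxd10 and, by 1 of its 2 opposed probe sets, Hoxd13. With each gene read by its probe set brightest in shVector, Hoxd13 moved to the lower side, which left 5 higher and 2 lower. Both shPhf19 arrays lay above both shVector arrays for 13 Hox genes (39.4%, against 21.3% of all genes) and below them for 6 (18.2%, against 22.2%). With the probe set brightest in shVector it was 12 above and 7 below (36.4% and 21.2%, against 21% and 22.5%). By probe sets it was 17 above and 8 below, against 19.4% and 21.0% of all. A change of at least 0.5 upward was seen in 5 Hox genes (Hoxd8, Hoxd9, Hoxd10, Hoxc13 and the discordant Hoxd13), or 15.2%, and in 1.60% of all genes and 1.32% of all probe sets. By the probe set brightest in shVector it was seen in 4 Hox genes (12.1%, against 1.52% of all genes). None had a change of that size downward, where 1.22% of all genes and 0.897% of all probe sets did. The change was above 0 in 20 of 33 Hox genes (60.6%, against 49.0% of all genes) and in 26 of 48 Hox probe sets (against 48.2% of all). With the probe set brightest in shVector it was above 0 in 19 of 33 (57.6%, against 48.5% of all genes). The median change was 0.07 over the 33 genes and 0.00 over all genes; by the probe set brightest in shVector it was 0.03 over the 33. Without Hoxd8, Hoxd9 and Hoxd10 the median of the other 30 was 0.02, with 17 above 0.

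**Figure D4:**
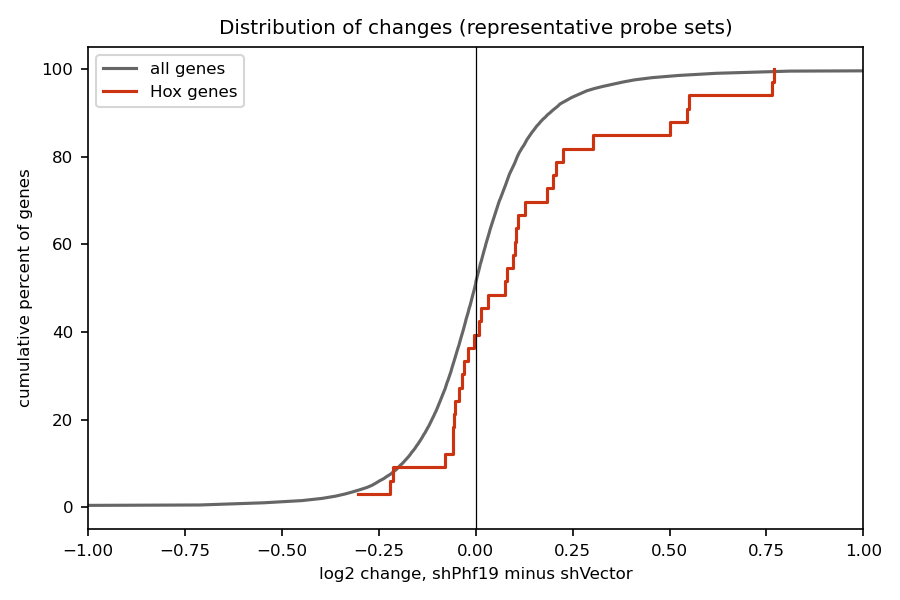
Cumulative percent of genes (vertical axis) up to a given log2 change (horizontal axis, drawn from -1 to 1) for the 33 Hox genes in red and all 18193 genes in grey, each gene by its representative probe set. The red curve lies to the right of the grey one over most of its range, 60.6% of Hox genes and 49.0% of all genes lie above 0, and 5 Hox genes have a change of at least 0.5. Read by the probe set brightest in shVector, 57.6% of Hox genes and 48.5% of all genes lie above 0, and 4 Hox genes reach 0.5.

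By position, the 7 genes of paralog groups 1 to 3 had a median change of 0.10, the 12 of groups 4 to 8 a median of -0.01 and the 14 of groups 9 to 13 a median of 0.08. Within groups 9 to 13, the 4 Hoxa genes had a median of -0.02, the 2 Hoxb genes -0.04 and the 3 Hoxc genes -0.06. The 5 Hoxd genes had a median of 0.54, which is the value of Hoxd13 by 1440626_at; it was 0.11 with the probe sets of a gene averaged or with those brightest in shVector. The differences between clusters and between positions were not tested.

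The TALE homeodomain proteins of the Pbx, Meis and Pknox families bind DNA together with Hox proteins. Of 8 measured, 2 rose and none fell by their representative probe sets, where 1.15% of all genes rose and 0.863% fell. The median change of the 8 was 0.11. Meis1, a partner of posterior Hox proteins, read 4.74 and 4.79 in shVector and 6.23 and 5.73 in shPhf19 by its probe set 1450992_a_at (1.22 ± 0.17, limma adjusted p = 0.0282). This probe set was the brightest of 3 only through its shPhf19 values. In shVector 1459423_at was brighter (a mean of 5.27 against 4.76), and it stood at -0.14 ± 0.10, so by the probe set brightest in shVector 1 of the 8 rose. The other probe set was at 0.70 ± 0.13. Meis2 was higher by all 4 of its probe sets, which ran from 0.75 ± 0.10 to 0.95 ± 0.09 with limma adjusted p-values of 0.01 to 0.0237. Its representative probe set read 8.58 and 8.39 in shVector and 9.43 and 9.44 in shPhf19. Pbx3 was at 0.47 ± 0.11 and did not pass. None of these calls held with any 1 array left out.

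Regulators that keep Hox clusters silent or active were examined as well. Of 27 Polycomb, Trithorax and related genes, 1 rose and none fell by their representative probe sets (median 0.05), where 1.15% of all genes rose and 0.863% fell. That gene was Kdm2b, which encodes the subunit that brings a variant Polycomb repressive complex 1 to CpG islands, at 0.43 ± 0.06 (limma adjusted p = 0.0322). At an unadjusted p under 0.05 by limma, 6 of the 27 were higher and 1 lower (22.2% and 3.7%), against 7.73% and 7.35% of all genes. Bmi1 stood at 0.42 ± 0.09 and 0.48 ± 0.12 by its probe sets and did not pass. Jarid2, which encodes an accessory subunit of PRC2, was higher by all 3 of its probe sets. Its representative was at 0.30 ± 0.05 and did not pass (limma adjusted p = 0.0593), 1422697_s_at passed at 0.28 ± 0.04 (limma adjusted p = 0.0467), and the third was at 0.34 ± 0.12 (limma adjusted p = 0.317). Among the others that did not pass, Cbx2, a chromodomain subunit of Polycomb repressive complex 1, read 8.04 and 7.86 in shVector and 7.38 and 7.45 in shPhf19 (-0.53 ± 0.10, limma adjusted p = 0.0643), while its dimmer probe set was at 0.07 ± 0.10. Genes that flank the 4 clusters did not pass in any case: 0 of 26 had an adjusted p under 0.05 by limma, 4 had an unadjusted p under 0.05 (2 in each direction), and the median was -0.04. Calcoco2 (0.36 ± 0.10) and Cbx5 (0.25 ± 0.07) had the smallest p. Evx2, the homeobox gene beyond Hoxd13, was at -0.09 ± 0.10, and Mtx2, beyond Hoxd1 at the other end, at 0.08 ± 0.09. None of the 8 ParaHox and Evx genes passed by limma, and 1 had an unadjusted p under 0.05 (Gsx2, 0.40 ± 0.10); Cdx1, which activates Hox genes and is also in the next list, stood at -0.28 ± 0.13. None of 15 early retinoic acid response genes passed by limma, adjusted or unadjusted, with Rarg at 0.19 ± 0.08 and Foxa1 at 0.37 ± 0.17. Of the noncoding RNA genes fixed for the clusters, 2 of 17 were measured, Hoxb5os at 0.12 ± 0.10 and Hoxa11os at -0.09 ± 0.09.

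Markers were read to check the cells behind these values. Of all genes, 1.15% rose and 0.863% fell past limma's threshold. At an unadjusted p under 0.05 by limma, 7.73% of all genes were higher and 7.35% lower. All 10 embryonal carcinoma markers, Pou5f1, Sox2 and Nanog among them, lay above the array median, with a mean level of 12.4 on each array and none past the threshold (Nanog -0.26 ± 0.05, Fgf4 0.19 ± 0.06; 4 had an unadjusted p under 0.05). Fibroblasts express many Hox genes, and of 11 fibroblast markers 9 lay below the array median, with mean levels of 4.57 and 4.57 in shVector and 4.48 and 4.47 in shPhf19; none passed by limma, and 2 had an unadjusted p under 0.05 (Pdgfrb -0.68 ± 0.14, Thy1 0.46 ± 0.12). Of 10 primitive endoderm markers 4 rose (Dab2 1.40 ± 0.12, Gata6 1.19 ± 0.13, Pdgfra 1.17 ± 0.15, Col4a1 1.04 ± 0.08). The list had 8 genes above 0 and 2 below. Those below, Sox7 (-0.24 ± 0.11) and Sparc (-0.12 ± 0.06), were lower on both shPhf19 arrays without passing. The mean level of the 10 markers went from 6.83 and 6.91 in shVector to 7.47 and 7.40 in shPhf19. Of 10 neural progenitor markers, Neurod1 (1.43 ± 0.13) and Sox1 (1.11 ± 0.08) rose and Tubb3 fell (-0.54 ± 0.08). Pax6 was at -1.12 ± 0.22 (limma adjusted p = 0.0805) and Map2 at -0.47 ± 0.11 without passing, and the list was split, with 6 genes above 0 and 4 below and a mean level of 5.77 to 5.79 in shVector and 5.87 to 5.90 in shPhf19. None of 9 caudal mesoderm markers passed by limma, and 1 had an unadjusted p under 0.05 (Mesp2 0.26 ± 0.09; Tbx6 0.22 ± 0.11). The part of endoderm or neural markers in the Hoxd values was not tested.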

How the data were processed

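RNA of 4 arrays was compared, 2 shVector and 2 shPhf19. The deposited table of expression values was read as log2 from its range (2.31 to 14.5 without controls). The sources used here do not name the authors' software or normalization. The array medians nearly coincided. Dim probe sets can understate changes, and only the number of arrays is known to limit precision. Of 45101 probe sets, 64 Affymetrix controls were left out. GEO's platform annotation gave 34945 probe sets 1 gene symbol and 932 several, and 9160 had none. All 33 Hox gene numbers were found in a RefSeq table (GRCm38.p6), with 0 symbols changed. The probe set with the highest mean among those listed with 1 gene stood for that gene, a choice that a large change can itself decide (Hoxd13, Meis1).

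Groups were compared over all 45037 probe sets with limma 3.58.1 in R 4.3.3 (lmFit, eBayes with an intensity trend), two-sided, with Benjamini-Hochberg adjustment and a threshold of 0.05. SE are limma's moderated errors. The test was run on data simulated from its own model, which cannot show whether these 4 arrays meet its assumptions. Members and lists were chosen with earlier results of these data known. Per-array values are given for Hox probe sets past the threshold, for the 3 largest absolute changes in each cluster, for Hox probe sets with a change of at least 0.5 whose groups do not overlap, and for members whose probe sets differ by at least 0.5. For other lists, up to 4 passing genes per direction are named, or otherwise the 2 with the smallest p; genes beyond this were chosen after their values were seen. The alternatives were 2 normalizations, no variance trend, 2 filters on dim probe sets, replicate blocks, 1 array left out, the mean of a gene's probe sets and, added after seeing the data, its probe set brightest in shVector.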

Additional observations from a re-analysis of the deposited data

How the results depend on the processing

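Directions of the 14 named Hox probe sets were kept under every alternative that gave a value, but the design mostly fixed this. The filters, the blocks and the variance trend leave the change itself the same with 2 arrays per group. Leaving out 1 array cannot turn a direction where the groups do not overlap, as in most of these probe sets. Of the 14, only Hoxd9 was called as deposited, and it lost the call without a variance trend and with a replicate block. Hox probe sets and Hox genes called higher, 1 each as deposited, were 2 each with quantile normalization (Hoxd9, Hoxd10). They were also 2 each without the lowest 25% of probe sets (Hoxd9, Hoxc13), a filter that removed Hoxd10 and left 20 Hox genes. All probe sets called higher were 374 as deposited, 492 with quantile normalization and 451 of the 33778 left by that filter. Without a variance trend the Hox counts were 0 each, when all probe sets called were 229 higher and 151 lower, against 374 and 262 as deposited. With the mean of probe sets, 4 Hox genes were called (Hoxc13, Hoxd8, Hoxd9, Hoxd10). Of these, Hoxc13, Hoxd9 and Hoxd10 have 1 probe set each, so their changes were those of the fit as deposited. Only their fitted variances and the number of tests differed. How many of all genes were called in that fit is not given here. With the probe set brightest in shVector, added after seeing the data, 1 Hox gene was called higher and 2 genes of the other lists were, against 3. Without the lowest 50% of probe sets, 6 Hox genes remained with a median change of -0.0113, and 1 gene of the other lists was called lower (Cbx2).

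With a replicate block, limma called 0 Hox probe sets and genes, 0 probe sets in all in either direction and 0 genes of the other lists, with 8 Hox probe sets higher and 3 lower at an unadjusted p under 0.05; Hoxd9 had an adjusted p of 0.311. Over probe sets, arrays of the same number deviated from their groups with a correlation of -0.197, and no label ties the numbers to a shared day or batch, so the numbers were not taken as pairs. With crossed numbers, chosen after seeing the data, 1 Hox probe set was called. With any 1 array left out, every count of calls (Hox probe sets, Hox genes, all probe sets, other lists) was 0 to 0, with 7 to 8 Hox probe sets higher and 1 to 3 lower at an unadjusted p under 0.05. Such a fit has 1 array in a group, which is assumed to vary like the other group. The median change of Hox genes then ran from 0.03 to 0.10.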
